A study of Mus musculus with 3 samples.

Results

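The genes described here are 43 immediate early and dissociation stress genes, chosen by symbol from a fixed list: AP-1, EGR, NR4A, DUSP, KLF and ZFP36 family genes, other early response genes, and heat shock genes. All 43 had a row among the 23997 genes of the deposited table, and all 43 averaged 1 FPKM or more over the libraries. FPKM counts fragments scaled to transcript length and library size, so levels of different genes can be set side by side. The lowest member was Fosl1, with a mean of 3.97 FPKM, so the limit of 1 FPKM left none out.

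The cells were colonic macrophages of male C57BL/6 mice without treatment, sorted as CD64-positive cells with little Ly6C and no Siglec-F. Tle4cKO mice carried floxed Tle4 with Lyz2-Cre, Tle3cKO mice carried floxed Tle3 with Lyz2-Cre, and WT mice carried Lyz2-Cre alone, so Cre was present in every group. Lyz2-Cre is active in myeloid cells at large and not in colonic macrophages alone. TLE3 and TLE4 are Groucho-family corepressors, which have no DNA-binding domain and are brought to genes by other factors. Mice were 8.9 weeks old by the sample fields, and 9 weeks by the protocol. Cells of 4 Tle4cKO, 3 Tle3cKO and 4 WT mice were pooled by genotype, which leaves 1 library per genotype. There is no replicate spread, and no difference given here has a standard error or a test.

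Immediate early genes are transcribed within minutes of a stimulus, without new protein synthesis, because the factors that switch them on (SRF with its partners, CREB, NF-kB) are already in the cell and are activated by kinases. Many encode transcription factors or feedback inhibitors, and their mRNAs are short-lived. Heat shock genes are switched on by HSF1 when proteins unfold. In cells taken from solid tissue, both programmes are also known to be induced by enzymatic digestion and sorting, so their levels in sorted macrophages hold the state in the tissue and the response to isolation together.

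Letters recognised by these factors were looked for in the 250 bases before each RefSeq start site, on both strands, for the 35 members with a promoter in the table used (build GRCm38.p6). No entry was used for Myc, Fosl1, Hsp90aa1, Egr1, Egr3, Zfp36l2, Ier2 and Hspa8. A gene counted as holding a motif when any of its windows did. Motifs may overlap, as GCGNGGGCG and GGGCGG can. The CArG box, the SRF site, was found in 3 of 35 members (8.57%), Egr2, Dusp5 and Zfp36, against 1.62% of 27025 genes with a promoter. TGACG, the core of the CREB site, was found in 18 members (51.4%) against 19.8% of all genes, and the complete site TGACGTCA, which contains it, in 3 (8.57%) against 1.77%. GCGNGGGCG, a pattern wider than the site of EGR proteins because N may be any base, was found in 13 members (37.1%) against 5.33%. GAANNTTC, a pair of inverted heat shock units, was found in 5 (14.3%) against 7.73%, and 3 of the 5 heat shock members with a promoter were among them. TGANTCA, a pattern wider than the AP-1 site because N may be any base, was found in 2 members (5.71%) against 7.82%. The letters were TGAGTCA in Csrnp1 and TGATTCA in Zfp36l1, and only the first is the AP-1 site. TATAAA, searched on the gene strand, was found in 4 (11.4%) against 8.94%, and GGGCGG, the GC box, in 31 (88.6%) against 35.4%. The heat shock site of 3 units was found in none against 0.514%. The member promoters were rich in G and C, with a median of 64.8% against 52.4% over all genes and 59.9% over those averaging 1 FPKM or more, and how far this accounts for the GC-rich motifs was not tested. Among the 8429 promoters of genes averaging 1 FPKM or more, the shares were 1.42% for the CArG box, 31.3% for TGACG, 3.2% for TGACGTCA and 10.5% for GCGNGGGCG. They were 64% for GGGCGG, 4.75% for TATAAA, 6.04% for GAANNTTC, 5.65% for TGANTCA and 0.498% for the heat shock site of 3 units. Windows of 5 members are shown because their values in the libraries run in different directions: Egr2, Klf2 and the Hspa1a and Hspa1b pair were lower in Tle4cKO than in WT, and Dusp5 was higher. Each line gives bases 250 to 51 before the start site, read 5′ to 3′ on the strand of the gene, from RefSeq on GRCm38.p6. Capitals mark the CArG boxes in Egr2 and Dusp5, GCGNGGGCG in Klf2 and GAANNTTC in Hspa1a and Hspa1b.
Egr2, chr10:67537619-67537818, plus strand: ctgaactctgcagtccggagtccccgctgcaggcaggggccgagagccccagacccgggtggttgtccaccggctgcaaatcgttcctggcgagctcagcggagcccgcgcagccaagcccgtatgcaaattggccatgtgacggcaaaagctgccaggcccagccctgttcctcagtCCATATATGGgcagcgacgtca
Dusp5, chr19:53528895-53529094, plus strand: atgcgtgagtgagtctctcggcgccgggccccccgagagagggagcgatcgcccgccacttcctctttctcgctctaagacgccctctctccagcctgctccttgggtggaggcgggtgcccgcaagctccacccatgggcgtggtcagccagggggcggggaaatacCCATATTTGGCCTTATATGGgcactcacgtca
Klf2, chr8:72318812-72319011, plus strand: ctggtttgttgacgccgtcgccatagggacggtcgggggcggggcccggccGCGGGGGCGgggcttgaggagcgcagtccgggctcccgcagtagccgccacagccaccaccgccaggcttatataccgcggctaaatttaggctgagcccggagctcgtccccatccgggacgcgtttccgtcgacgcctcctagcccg
Hspa1a, chr17:34972207-34972406, minus strand: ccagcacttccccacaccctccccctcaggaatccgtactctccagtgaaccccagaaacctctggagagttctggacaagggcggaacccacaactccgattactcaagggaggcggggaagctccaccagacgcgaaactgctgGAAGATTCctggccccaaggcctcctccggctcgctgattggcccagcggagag
Hspa1b, chr17:34959289-34959488, minus strand: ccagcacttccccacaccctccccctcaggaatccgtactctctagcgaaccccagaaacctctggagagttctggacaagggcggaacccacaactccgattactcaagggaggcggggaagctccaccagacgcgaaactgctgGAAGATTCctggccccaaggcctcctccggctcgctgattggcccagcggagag
The Hspa1a and Hspa1b windows were identical at 198 of 200 bases. Egr2 and Dusp5 both hold CArG boxes, and their levels differed from WT in opposite directions in Tle4cKO. Whether any of these motifs bears on the levels was not tested.

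Tle3 was at 46.9 FPKM in Tle4cKO, 70.7 in the library labelled Tle3cKO and 38.6 in WT, so it was higher, not lower, in the library labelled Tle3cKO. Tle4 was at 5.8 FPKM in Tle4cKO, 11 in the library labelled Tle3cKO and 8.5 in WT. Its log2 ratio for Tle4cKO over WT was -0.48, which is in the direction of the label but short of 1.5-fold. A gene-level value need not drop when some exons are lost, but the Tle3 value goes against the label, so every direction drawn from that library below carries this doubt. The macrophage markers summed to 1085 FPKM in Tle4cKO, 1113 in the library labelled Tle3cKO and 1161 in WT. Among them Fcgr1, which encodes CD64, was at 39.2 FPKM in Tle4cKO, 36.0 in the library labelled Tle3cKO and 33.3 in WT. Csf1r, the receptor of the macrophage growth factor CSF1, was at 387 in Tle4cKO, 406 in the library labelled Tle3cKO and 459 in WT. Lyz2, whose promoter drives the Cre, was at 11.3 in Tle4cKO, 11.7 in the library labelled Tle3cKO and 10.4 in WT FPKM in its row. Of the genes the gate selects against, Ly6c2 was at 6.52 FPKM in Tle4cKO, 5.98 in the library labelled Tle3cKO and 9.38 in WT. Ly6c1 ran the other way, at 9.50 FPKM in Tle4cKO, 11.6 in the library labelled Tle3cKO and 7.57 in WT. The Siglec-F gene (row Siglec5) was at 2.07 FPKM in Tle4cKO, 2.48 in the library labelled Tle3cKO and 2.90 in WT. The eosinophil peroxidase gene Epx was listed at 0 in all 3. Absolute depth is unknown. Relative depths were read from the most common ratio between a library and WT among values below 0.3 FPKM, over 1952 and 1846 genes. This assumes equal fragment numbers at that ratio. By this reading the Tle4cKO library had 1.21 times and the library labelled Tle3cKO 0.968 times the depth of WT.

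The members were abundant. Their median level was 96.2 FPKM in Tle4cKO, 117 in the library labelled Tle3cKO and 126 in WT, while that of the 11114 genes averaging 1 FPKM or more was 10.4 in Tle4cKO, 10.5 in the library labelled Tle3cKO and 10.4 in WT. Of the 43 members, 22 in Tle4cKO, 23 in the library labelled Tle3cKO and 25 in WT were among the 1000 most abundant genes, a range that holds 9% of the genes. Together they made up 1.16% of all FPKM in Tle4cKO, 1.27% in the library labelled Tle3cKO and 1.26% in WT. The highest member in each library was Junb, which ranked 111 in Tle4cKO, 117 in the library labelled Tle3cKO and 120 in WT.

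**Figure D1:**
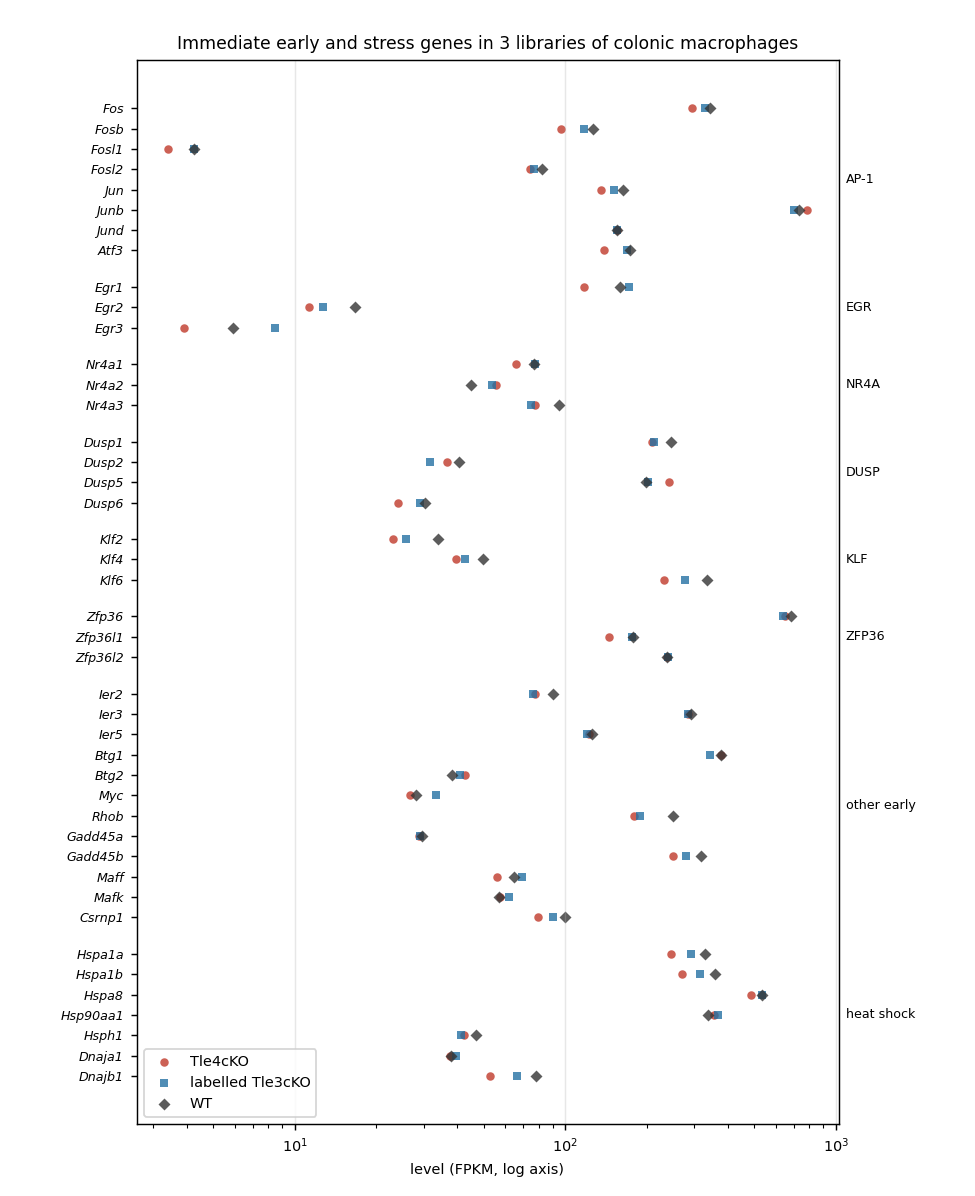
Level of each of the 43 members in FPKM on a log axis, with genes grouped by family from top to bottom. Each point is 1 library (Tle4cKO red circles, labelled Tle3cKO blue squares, WT dark diamonds), and no error can be drawn. The Tle4cKO point is the leftmost for all EGR and KLF genes, and lies right of WT for Nr4a2 and Dusp5.

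Most members were lower in Tle4cKO than in WT, each by a modest amount. Of the 43, 37 were lower, where 50.6% of all genes were lower. The log2 ratios ran between -0.55 for Dnajb1 and 0.30 for Nr4a2, with the middle value -0.22 against -0.0026 over all genes. Every log2 ratio is on the scale of FPKM plus 1. None of the 43 reached 1.5-fold in either direction (2.91% of all genes did, 1.7% lower and 1.21% higher) and none reached 2-fold (0.648%). At 1.25-fold, a limit chosen after seeing the data, 13 of the 43 were lower (5.94% of all genes) and none was higher (5.17%). Those 13 were Fosb, the 3 EGR genes, the 3 KLF genes, Rhob, Gadd45b, Csrnp1, Hspa1a, Hspa1b and Dnajb1. Of the 40 members with a mean of at least 25 FPKM, 34 were lower in Tle4cKO, where 48.5% of the 3058 genes at that level were, and 11 were at least 1.25-fold lower (2.68%). Under equal total FPKM, 33 of the 43 were lower and 43.7% of all genes were. In bulk RNA, fewer cells of a type and less RNA per cell cannot be told apart.

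In the library labelled Tle3cKO against WT the share of members that were lower stood near that of other abundant genes. Of the 43, 30 were lower, where 52.4% of all genes were, with a median log2 ratio of -0.06 against -0.01 over all genes. Of the 40 members with a mean of at least 25 FPKM, 28 were lower (70%), as were 64.9% of all genes at that level. Of the same 40 members, 4 were at least 1.25-fold lower (3.27%). Under equal total FPKM the median turned to 0.037, with 19 of the 43 lower and 31.6% of all genes lower. No member reached 1.5-fold (2.68% of all genes, 1.09% lower and 1.59% higher) or 2-fold (0.423%). At 1.25-fold, Egr2, Nr4a3, Dusp2, Klf2 and Rhob were lower (5.25% of all genes) and Egr3 was higher (6.87%).

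Set against the library labelled Tle3cKO, Tle4cKO was lower for 32 of the 43 members, where 47.6% of all genes were lower. The median log2 ratio was -0.11 against 0.0093. Of the 40 members at 25 FPKM or more, 29 were lower, against 33.7% of all genes at that level, and 2 were at least 1.25-fold lower (2.26%). Under equal total FPKM, 39 of the 43 and 63.6% of all genes were lower. At 1.25-fold, Egr1, Egr3 and Dnajb1 were lower (6.77% of all genes) and none was higher (4.59%). Egr3 was the only member past 1.5-fold, on the lower side (2.14% of all genes lower, 0.891% higher, 3.03% in all). None passed 2-fold (0.729%) at a pseudocount of 1, while 1 did, Egr3, at a pseudocount of 0.1 or with equal total FPKM. The 3 comparisons share libraries, so they are not independent of each other. Read as levels, Tle4cKO was the lowest of the 3 libraries for 30 of the 43 members (31.4% of all genes) and the highest for 4 (33.1%). WT was the lowest for 5 (32%) and the highest for 29 (35%), and the library labelled Tle3cKO was the lowest for 8 (36.6%) and the highest for 10 (31.8%).

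**Figure D2:**
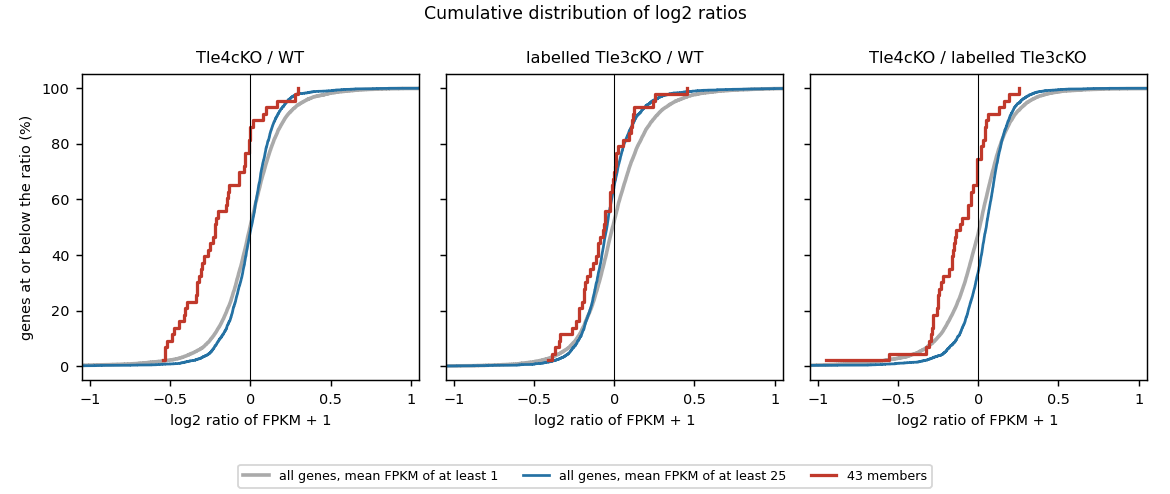
Cumulative share of genes (%) at or below each log2 ratio of FPKM + 1, for Tle4cKO over WT, labelled Tle3cKO over WT and Tle4cKO over labelled Tle3cKO. The red line is the 43 members, the grey line all genes averaging 1 FPKM or more, and the blue line those averaging 25 or more. The red line lies left of the others in the comparison of Tle4cKO with WT (median -0.22) and close to the blue line for labelled Tle3cKO with WT (median -0.06).

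The AP-1 genes encode the leucine-zipper proteins that pair into the AP-1 factor. Fos was at 295 FPKM in Tle4cKO, 329 in the library labelled Tle3cKO and 343 in WT. Fosb, a paralogue of Fos, was at 96.2 FPKM in Tle4cKO, 117 in the library labelled Tle3cKO and 127 in WT , a log2 ratio of -0.40 for Tle4cKO over WT. Jun, the main partner of the FOS proteins, was at 136 FPKM in Tle4cKO, 152 in the library labelled Tle3cKO and 163 in WT. Fos and Jun stood in nearly the same proportion in each library: the ratio of Fos to Jun was 2.18 in Tle4cKO, 2.16 in the library labelled Tle3cKO and 2.0998 in WT. Junb, which encodes a JUN protein that can restrain JUN, did not follow them. It was at 781 FPKM in Tle4cKO, 699 in the library labelled Tle3cKO and 730.2 in WT, so the ratio of Junb to Jun was 5.76 in Tle4cKO, 4.61 in the library labelled Tle3cKO and 4.48 in WT. Jund, which is known to be expressed constitutively, was at 155 FPKM in Tle4cKO, 156 in the library labelled Tle3cKO and 156 in WT. Atf3, a stress-induced repressor of the same superfamily, was at 139 FPKM in Tle4cKO, 169.5 in the library labelled Tle3cKO and 173 in WT, lowest in Tle4cKO. Fosl2 was at 74.4 FPKM in Tle4cKO, 76.7 in the library labelled Tle3cKO and 82.1 in WT. Fosl1 was at 3.42 FPKM in Tle4cKO, 4.23 in the library labelled Tle3cKO and 4.26 in WT. In Fosl1 58.9% and in Jund 48.3% of the 50-base stretches also occur in a gene on the opposite strand. Exons of Junb overlap such a gene too. Of the 8 AP-1 genes 7 stood below WT in Tle4cKO (50.6% of all genes), and the family's median was -0.23 on the log2 scale. Jund, with a log2 ratio of -0.01, turned to the other side under equal total FPKM. In the library labelled Tle3cKO all 8 stood below WT (52.4% of all genes). Their median there was -0.06, which turned to 0.039 under equal total FPKM.

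The EGR genes encode zinc-finger factors that read GC-rich sites. All 3 were lowest in Tle4cKO (31.4% of all genes). Egr1, the most abundant, was at 117 FPKM in Tle4cKO, 173 in the library labelled Tle3cKO and 159.9 in WT. In Tle4cKO its level was 73.4% of that in WT and 67.9% of that in the library labelled Tle3cKO. Egr3 (chromosome 14, 70077203 to 70082614, mm10) was at 3.92 FPKM in Tle4cKO, 8.47 in the library labelled Tle3cKO and 5.90 in WT, a log2 ratio of -0.95 for Tle4cKO over the library labelled Tle3cKO, the one farthest from 0 of the 43. That ratio ran between -1.09 and -0.595 under the other settings. Egr2 was at 11.3 FPKM in Tle4cKO, 12.7 in the library labelled Tle3cKO and 16.7 in WT, so it was below WT in each. The family's median log2 ratio was -0.49 in Tle4cKO over WT and 0.11 in the library labelled Tle3cKO over WT.

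The NR4A genes encode orphan nuclear receptors that are induced early in activated macrophages. Nr4a1 was at 65.6 FPKM in Tle4cKO, 77.1 in the library labelled Tle3cKO and 76.5 in WT. Nr4a3 was at 77.7 FPKM in Tle4cKO, 74.9 in the library labelled Tle3cKO and 95.3 in WT, and WT was the highest. Nr4a2 (chromosome 2, 57106830 to 57124003) went the other way, at 55.4 FPKM in Tle4cKO, 53.8 in the library labelled Tle3cKO and 44.9 in WT. Its log2 ratio to WT was 0.30 in Tle4cKO, the highest of the 43 at a pseudocount of 1, and 0.25 in the library labelled Tle3cKO. The ratio of Nr4a2 to Nr4a3 was accordingly 0.713 in Tle4cKO, 0.718 in the library labelled Tle3cKO and 0.472 in WT.

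The DUSP genes encode phosphatases that switch off the MAP kinases which induce the other members. Dusp1, which acts mainly on p38 and JNK, was at 209 FPKM in Tle4cKO, 214 in the library labelled Tle3cKO and 246 in WT. Dusp6, which acts on ERK in the cytoplasm, was at 24.1 FPKM in Tle4cKO, 29.0 in the library labelled Tle3cKO and 30.2 in WT, a log2 ratio of -0.32 for Tle4cKO over WT. Dusp5, which acts on ERK in the nucleus, was higher in Tle4cKO, at 242 FPKM against 202 in the library labelled Tle3cKO and 198.8 in WT. The ratio of Dusp5 to Dusp6 was 10.0 in Tle4cKO, 6.98 in the library labelled Tle3cKO and 6.57 in WT, with Dusp5 above WT and Dusp6 below it. Exons of Dusp5 overlap a gene on the opposite strand, and 20.5% of the 50-base stretches of its transcript occur there, so part of its reads cannot be told from that gene without strand. Dusp2 was at 36.4 FPKM in Tle4cKO, 31.7 in the library labelled Tle3cKO and 40.4 in WT, lowest in the library labelled Tle3cKO.

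The KLF genes encode zinc-finger factors that restrain inflammatory genes (KLF2, KLF4) or are induced with them (KLF6) in macrophages. Klf6 (chromosome 13, 5861482 to 5870394) was at 233 FPKM in Tle4cKO, 278 in the library labelled Tle3cKO and 334 in WT. Klf2 (chromosome 8, 72319033 to 72321656) was at 23.2 FPKM in Tle4cKO, 25.7 in the library labelled Tle3cKO and 33.9 in WT. Klf4 was at 39.5 FPKM in Tle4cKO, 42.8 in the library labelled Tle3cKO and 49.9 in WT. Each of the 3 was lowest in Tle4cKO (31.4% of all genes) and highest in WT (35%). The median log2 ratio was -0.52 for Tle4cKO over WT, and between -0.53 and -0.47 under the other settings. It was -0.27 for the library labelled Tle3cKO over WT, with a range of -0.27 to -0.17, and -0.15 for Tle4cKO over the library labelled Tle3cKO.

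The ZFP36 proteins bind AU-rich elements and speed the decay of cytokine and early response mRNAs. Zfp36 was at 649.5 FPKM in Tle4cKO, 641 in the library labelled Tle3cKO and 683 in WT. Zfp36l2 was at 238 FPKM in Tle4cKO, 239 in the library labelled Tle3cKO and 238 in WT. Of their log2 ratios to WT, the one farthest from 0 was -0.09, for Zfp36 in the library labelled Tle3cKO. Zfp36l1 stood lower in Tle4cKO, at 145 FPKM against 177 in the library labelled Tle3cKO and 179 in WT. Of the 50-base stretches of the Zfp36l1 transcript, 56.9% also occur in other genes, mostly a gene on the opposite strand.

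Among the other early genes, Rhob (chromosome 12, 8497661 to 8500009), an immediate early gene for a small GTPase of endosomes and the actin cytoskeleton, differed most from WT. It was at 180.1 FPKM in Tle4cKO, 189 in the library labelled Tle3cKO and 251 in WT, log2 ratios to WT of -0.48 and -0.41. Gadd45b, a stress sensor that binds MAP kinase kinases, was at 251 FPKM in Tle4cKO, 280.2 in the library labelled Tle3cKO and 318 in WT, also below WT. Csrnp1, a nuclear protein induced by AXIN1, was at 79.2 FPKM in Tle4cKO, 89.9 in the library labelled Tle3cKO and 99.98 in WT, again lowest in Tle4cKO. Maff and Mafk encode small MAF proteins, which lack a transactivation domain. Maff was at 56.2 FPKM in Tle4cKO, 69.1 in the library labelled Tle3cKO and 64.8 in WT. Mafk was at 57.7 FPKM in Tle4cKO, 61.8 in the library labelled Tle3cKO and 56.9 in WT. Both were highest in the library labelled Tle3cKO, as was Myc, a growth regulator. Myc was at 26.8 FPKM in Tle4cKO, 33.5 in the library labelled Tle3cKO and 28.2 in WT. Ier3, an early gene linked to apoptosis and NF-kB signalling, was at 284 FPKM in Tle4cKO, 285 in the library labelled Tle3cKO and 291 in WT. Its 3 values lay close together. Btg1, an antiproliferative gene of quiescent cells, was at 375 FPKM in Tle4cKO, 343 in the library labelled Tle3cKO and 376 in WT. Ier5 was at 123 FPKM in Tle4cKO, 120.1 in the library labelled Tle3cKO and 126 in WT. Gadd45a, a stress sensor related to Gadd45b, was at 28.8 FPKM in Tle4cKO, 29.0 in the library labelled Tle3cKO and 29.5 in WT. Of these 4 genes, Ier5 lay farthest from WT in Tle4cKO, at a log2 ratio of -0.04. Ier2 was at 77.2 FPKM in Tle4cKO, 76.3 in the library labelled Tle3cKO and 90.2 in WT, below WT in each floxed library. Btg2, an antiproliferative gene induced by p53, was at 42.8 FPKM in Tle4cKO, 40.9 in the library labelled Tle3cKO and 38.1 in WT. The median of these 12 genes was -0.06 in Tle4cKO over WT and nearly the same, -0.05, in the library labelled Tle3cKO over WT. The latter ran between -0.05 and 0.049 under the other settings. Of the 12, 7 were lowest in Tle4cKO (31.4% of all genes). For Btg1 the sign turned under equal total FPKM and under median ratio scaling.

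Of the 7 heat shock genes, 3 stood at least 1.25-fold below WT in Tle4cKO (5.94% of all genes did). Dnajb1, an HSP40 co-chaperone strongly induced by HSF1 (chromosome 8, 83608193 to 83612653), was at 52.9 FPKM in Tle4cKO, 66.6 in the library labelled Tle3cKO and 77.7 in WT. Its log2 ratio of -0.55 in Tle4cKO over WT was the lowest of the 43 at a pseudocount of 1. Hspa1a and Hspa1b, neighbouring intronless genes for the inducible HSP70 (chromosome 17, 34969190 to 34972156 and 34956436 to 34959238), were at 246 and 271 FPKM in Tle4cKO, 292 and 315 in the library labelled Tle3cKO and 328 and 359 in WT. Of the 50-base stretches of the Hspa1b transcript, 62.3% also occur in Hspa1a, so the division of reads between both is an estimate. Their ratio was nearly constant, at 0.909 in Tle4cKO, 0.929 in the library labelled Tle3cKO and 0.915 in WT. The other 4 lay closer to WT. Hspa8, which encodes the constitutive HSC70, was at 487 FPKM in Tle4cKO, 535 in the library labelled Tle3cKO and 534 in WT. Hsp90aa1, an HSP90 gene, was at 356 FPKM in Tle4cKO, 367 in the library labelled Tle3cKO and 337 in WT. Dnaja1, another HSP40 gene, was at 37.6 FPKM in Tle4cKO, 39.4 in the library labelled Tle3cKO and 37.9 in WT. Hsph1, an HSP110 exchange factor, was at 42.3 FPKM in Tle4cKO, 41.1 in the library labelled Tle3cKO and 47.0 in WT. Over the 7 genes the median log2 ratio to WT was -0.15 in Tle4cKO and -0.17 in the library labelled Tle3cKO. Under the other settings it ran between -0.16 and -0.12 in Tle4cKO, and between -0.17 and -0.068 in the library labelled Tle3cKO. Tle4cKO was lowest for 5 of the 7 genes (31.4% of all genes), though Dnaja1 turned above WT under equal total FPKM. The ratio of Hspa1a to Hspa8 was thus 0.505 in Tle4cKO, 0.546 in the library labelled Tle3cKO and 0.615 in WT. The ratio of Dnajb1 to Dnaja1 was 1.41 in Tle4cKO, 1.69 in the library labelled Tle3cKO and 2.05 in WT. Hspa8, Hsp90aa1 and Dnaja1 share 74.8%, 58.5% and 28.8% of their 50-base stretches with other genes, so their levels are less certain than those of Hsph1 and Dnajb1.

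**Figure D3:**
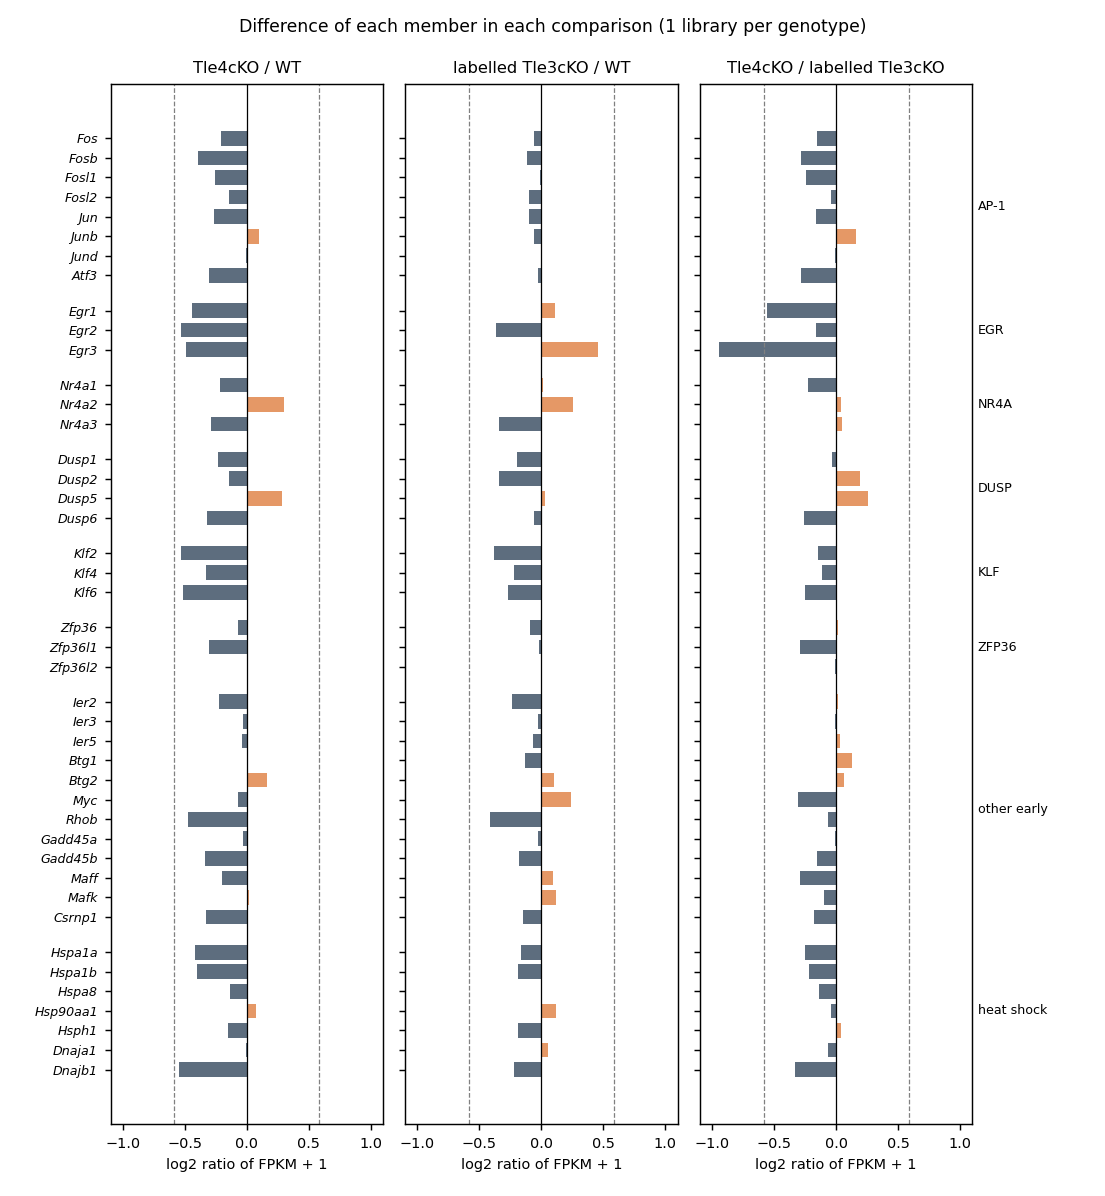
Log2 ratio of FPKM + 1 for each of the 43 members, in Tle4cKO over WT, labelled Tle3cKO over WT, and Tle4cKO over labelled Tle3cKO. Each bar is the difference between 2 libraries (grey lower, orange higher), and dashed lines mark 1.5-fold. No bar against WT reaches the lines, and Egr3 passes them in Tle4cKO over labelled Tle3cKO at -0.95.

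Most members have few introns. In the GENCODE M21 annotation 35 of the 43 (81.4%) have at most 4 exons in their principal transcript, against 21.3% of 10592 matched genes. A single exon was found in 8 (18.6%), against 2.72%. The median exon number was 3 against 9. Over all genes with at most 4 exons 51.4% were lower in Tle4cKO than in WT (median -0.0063), while the 35 members of that class had a median of -0.23, with 31 lower. Exons of 14 members overlap a gene on the opposite strand, and 10 members share at least 15% of their 50-base stretches with other genes. Of the 43, 26 share none, among them Klf2, Klf6, Egr1, Egr2, Egr3, Rhob and Fosb. Nr4a2 and Btg2, which were higher in Tle4cKO than in WT, also share none. Overlaps and shared stretches were counted for the members only, so no share of all genes can be set beside them.

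Genes upstream and around the members were read from other lists. Of 32 measured kinases and SRF or CREB factors that induce them, 23 were lower than in WT in Tle4cKO, and the library labelled Tle3cKO also had 23 lower, with medians of -0.08 and -0.07, and none reached 1.5-fold. Here and in the lists that follow, the share of all genes below WT was 50.6% for Tle4cKO and 52.4% for the library labelled Tle3cKO. Other dual-specificity phosphatases had medians of 0.02 and -0.06 over 13 genes, and other KLF and SP factors -0.01 and -0.04 over 11, and none of them reached 1.5-fold. Of 22 other leucine-zipper genes 14 were lower in Tle4cKO (median -0.05) and 9 in the library labelled Tle3cKO (median 0.04). Cebpd, a C/EBP factor induced by inflammatory signals, was at 27.0 FPKM in Tle4cKO, 44.2 in the library labelled Tle3cKO and 41.3 in WT. Batf2, an interferon-induced AP-1 partner, was at 2.63 FPKM in Tle4cKO, 2.08 in the library labelled Tle3cKO and 3.63 in WT.

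Of 45 other early response genes 30 were lower in Tle4cKO than in WT, with a median of -0.11, and 5 were at least 1.5-fold lower (1.7% of all genes). In the library labelled Tle3cKO 28 were lower, with a median of -0.03, none was 1.5-fold lower (1.09% of all genes) and 2 were 1.5-fold higher (1.59%), Ctgf and the glucose transporter gene Slc2a3. In Tle4cKO none was 1.5-fold higher (1.21%). Cyr61, a secreted matricellular protein, was at 33.3 FPKM in Tle4cKO, 71.1 in the library labelled Tle3cKO and 67.0 in WT. Id3, which blocks bHLH factors, was at 35.2 FPKM in Tle4cKO, 58.7 in the library labelled Tle3cKO and 60.0 in WT. Ccrn4l, which encodes the circadian protein nocturnin, was at 10.5 FPKM in Tle4cKO, 18.1 in the library labelled Tle3cKO and 17.6 in WT. All of these were close to WT in the library labelled Tle3cKO and low in Tle4cKO. Ctgf, a relative of Cyr61, was higher than WT in both, at 15.3 FPKM in Tle4cKO, 21.3 in the library labelled Tle3cKO and 11.2 in WT. Of 17 measured transcripts known as ZFP36 targets, 14 were lower in Tle4cKO (median -0.12) and 5 in the library labelled Tle3cKO (median 0.15).

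Chaperones outside the members lay on both sides of WT. Of 38 heat shock factors and other chaperones, 19 were lower and 19 higher in Tle4cKO, with a median of 0.01, and 21 were lower in the library labelled Tle3cKO, with a median of -0.01. Hspb1, the small heat shock protein HSP27, was higher, at 63.7 FPKM in Tle4cKO and 59.2 in the library labelled Tle3cKO, against 40.0 in WT. Hsf2, a heat shock factor, was at 8.14 FPKM in Tle4cKO, 5.40 in the library labelled Tle3cKO and 10.2 in WT. Within this list single genes ran both ways in Tle4cKO. The HSP40 genes Dnajb4 and Dnaja4 had log2 ratios to WT of -0.44 and -0.42, about those of the Hspa1a and Hspa1b pair. The co-chaperone genes Chordc1, Bag3 and Stip1 lay closer to WT, at -0.22, -0.20 and -0.16. The chaperone genes Hspa9, Hspe1 and Hspd1 were higher than in WT, at 0.23, 0.21 and 0.12.

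Markers of other cells also differed between the libraries, and the members are expressed in many cell types. Enteric glia markers summed to 14.02 FPKM in Tle4cKO, 41.2 in the library labelled Tle3cKO and 42.4 in WT. All 8 measured glia genes were lower in Tle4cKO, 7 of them at least 1.5-fold. Gfap was at 3.82 FPKM in Tle4cKO, 9.34 in the library labelled Tle3cKO and 8.92 in WT. S100b was at 0.514 FPKM in Tle4cKO, 1.64 in the library labelled Tle3cKO and 1.45 in WT. Both of these defining genes were present in every library. Colonic epithelial markers summed to 52.2 FPKM in Tle4cKO, 10.7 in the library labelled Tle3cKO and 5.23 in WT, with all 6 measured genes higher in Tle4cKO. Epcam was at 3.14 FPKM in Tle4cKO, 2.02 in the library labelled Tle3cKO and 1.20 in WT. Krt8 was at 4.90 FPKM in Tle4cKO, 0.337 in the library labelled Tle3cKO and 0.1501 in WT. Muc2 was at 2.996 FPKM in Tle4cKO, 0.256 in the library labelled Tle3cKO and 0.128 in WT. In WT the epithelial genes Krt20, Spink4, Tff3, Fcgbp, Slc26a3 and Phgr1 were listed at 0. B and plasma cell markers summed to 309 FPKM in Tle4cKO, 161 in the library labelled Tle3cKO and 117 in WT, with all 12 higher than WT in each floxed library. Cd79a was at 29.9 FPKM in Tle4cKO, 33.9 in the library labelled Tle3cKO and 19.5 in WT. Ms4a1 was at 6.86 FPKM in Tle4cKO, 6.80 in the library labelled Tle3cKO and 4.41 in WT. Igj, the joining chain of plasma cells, was at 192 FPKM in Tle4cKO, 57.9 in the library labelled Tle3cKO and 46.9 in WT.

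The sums of the remaining cell type lists differed less. Stromal, endothelial and muscle markers summed to 419 FPKM in Tle4cKO, 454 in the library labelled Tle3cKO and 389.99 in WT, with 12 of 17 higher in Tle4cKO and 13 in the library labelled Tle3cKO. Col1a1 was at 27.5 FPKM in Tle4cKO, 26.1 in the library labelled Tle3cKO and 26.2 in WT. Pecam1 was at 22.4 FPKM in Tle4cKO, 18.8 in the library labelled Tle3cKO and 24.9 in WT. Acta2 was at 10.9 FPKM in Tle4cKO, 12.8 in the library labelled Tle3cKO and 9.02 in WT, so fibroblast, endothelial and muscle genes were present in all 3. T, NK and innate lymphoid markers summed to 419 FPKM in Tle4cKO, 441 in the library labelled Tle3cKO and 427 in WT, mostly from Il7r and Cd4. The CD3 genes, which mark T cells, were low. Cd3e was at 1.70 FPKM in Tle4cKO, 1.55 in the library labelled Tle3cKO and 0.401 in WT. Cd3d was at 1.26 FPKM in Tle4cKO, 1.07 in the library labelled Tle3cKO and 0.630 in WT. Cd3g was at 0.956 FPKM in Tle4cKO, 0.844 in the library labelled Tle3cKO and 0.748 in WT. Neutrophil and eosinophil markers summed to 192 FPKM in Tle4cKO, 195 in the library labelled Tle3cKO and 192 in WT. Of the 5 measured genes 3 were lower in Tle4cKO than in WT. S100a8 was at 102 FPKM in Tle4cKO, 93.5 in the library labelled Tle3cKO and 81.4 in WT. Its partner S100a9 ran the other way, at 67.0 FPKM in Tle4cKO, 76.6 in the library labelled Tle3cKO and 84.0 in WT. Retnlg was at 2.05 FPKM in Tle4cKO, 4.55 in the library labelled Tle3cKO and 4.80 in WT. Dendritic cell markers summed to 469.5 FPKM in Tle4cKO, 374 in the library labelled Tle3cKO and 444 in WT. Zbtb46 was at 9.01 FPKM in Tle4cKO, 6.51 in the library labelled Tle3cKO and 8.37 in WT. Flt3 was at 13.7 FPKM in Tle4cKO, 15.6 in the library labelled Tle3cKO and 11.2 in WT. Xcr1 was at 8.83 FPKM in Tle4cKO, 6.60 in the library labelled Tle3cKO and 6.92 in WT. Most of the sum came from Ccr7, a chemokine receptor of migrating dendritic cells, at 316 FPKM in Tle4cKO, 216 in the library labelled Tle3cKO and 305 in WT. Mast cell and basophil markers summed to 26.1 FPKM in Tle4cKO, 22.1 in the library labelled Tle3cKO and 22.2 in WT, nearly all from Kit. Cpa3 was at 0.183 FPKM in Tle4cKO, 0.115 in the library labelled Tle3cKO and 0.111 in WT. Kit was at 24.4 FPKM in Tle4cKO, 19.5 in the library labelled Tle3cKO and 18.6 in WT. Mcpt1 was at 0.509 FPKM in Tle4cKO, 0.894 in the library labelled Tle3cKO and 2.03 in WT. Non-coding and ribosomal RNA rows that report on RNA quality summed to 962 FPKM in Tle4cKO, 2002 in the library labelled Tle3cKO and 1121 in WT, highest in the library labelled Tle3cKO. Rn45s, the ribosomal precursor, was at 331 FPKM in Tle4cKO, 795 in the library labelled Tle3cKO and 389 in WT. The part of these cell types and of RNA quality in the members' values was not tested.

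**Figure D4:**
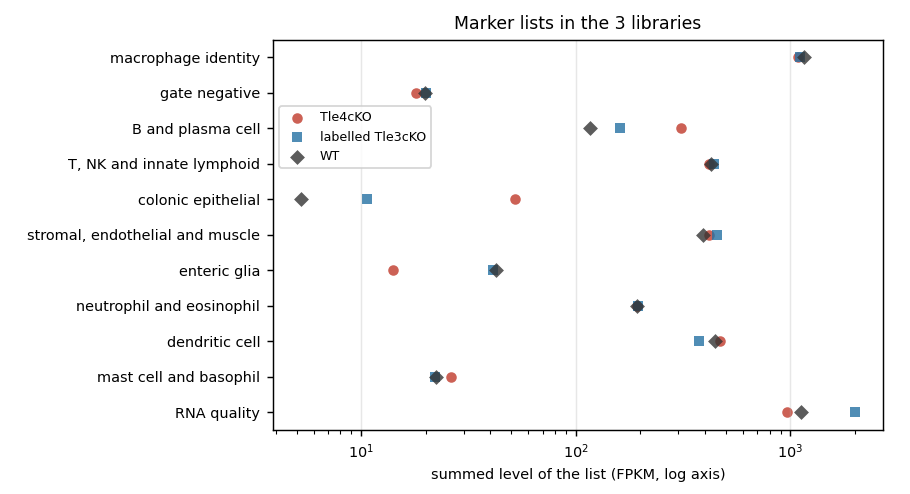
Summed level of each marker list in FPKM on a log axis, with 1 point per library (Tle4cKO red circles, labelled Tle3cKO blue squares, WT dark diamonds). Tle4cKO is lowest for enteric glia (14.02) and highest for colonic epithelial genes (52.2), and labelled Tle3cKO is highest for the RNA quality rows (2002).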

How the data were processed

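RNA of sorted colonic macrophages was sequenced in 3 pooled libraries, 1 per genotype. The authors deposited FPKM per gene, per the file headers, in 1 table per library with the same 23997 rows, of which 104 joined several symbols. The submitters' processing notes name Cufflinks 2.2.1, TopHat2 2.1.0 and the build mm10, with no roles. Whether counting used strand is unknown. Cufflinks is known to divide reads of near-identical genes by estimation.

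Log2 ratios used a pseudocount of 1 FPKM and covered 11114 genes averaging 1 FPKM or more. No test was possible with single libraries, and at the main settings members are set beside the share of all genes past the same limit. No counting interval is given, since absolute depth is unknown. The members, gene lists and alternatives were chosen with earlier results of these data known. Every member is named, with Tle3 and Tle4, the defining genes of each marker list (1 is not reported here), and from each other list at most 4 genes past 1.5-fold against WT. Krt20, Spink4, Tff3, Fcgbp, Slc26a3, Phgr1, Il7r, Cd4, Epx, S100a8, Rn45s, Lyz2, Csf1r, Ly6c1, S100a9, Retnlg, Ccr7, Slc2a3, Dnajb4, Dnaja4, Chordc1, Bag3, Stip1, Hspa9, Hspe1 and Hspd1 were named after their values were seen. Identifiers, exons and coordinates are from GENCODE M21 (GRCm38), matched by symbol, and 50-base stretches were compared with all its transcripts. Alternatives were 3 other scalings, a filter at 5 FPKM or none, and a pseudocount of 0.1 or 5. Only the log2 ratio and scaling steps were tested on simulated data. Software was matplotlib 3.10.9, pandas 2.3.3 and numpy 2.4.6 under Python 3.11.15. Limits of 1.25-fold and 25 FPKM were chosen after seeing the data.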

Additional observations from a re-analysis of the deposited data

How the results depend on the processing

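No paired analysis was possible because each genotype is 1 library. For Tle4cKO over WT the median log2 ratio of the members was -0.22, and it was -0.21 with a pseudocount of 5, -0.19 with equal total FPKM, -0.23 with equal upper quartiles, -0.21 without Hspa1a and Hspa1b and -0.21 at a mean of at least 25 FPKM, a filter chosen after seeing the data. For the library labelled Tle3cKO over WT the median was -0.06, and it turned to 0.037 with equal total FPKM. It was -0.067 with the filter at 5 FPKM, -0.054 with median ratio scaling, -0.039 with equal upper quartiles and -0.067 at 25 FPKM. For Tle4cKO over the library labelled Tle3cKO it was -0.11, and -0.12 with a pseudocount of 0.1, -0.10 with one of 5, -0.18 with equal totals, -0.12 with median ratio scaling, -0.14 with equal upper quartiles, -0.10 without Hspa1a and Hspa1b and -0.082 at 25 FPKM.

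For Tle4cKO over WT, 13 members were at least 1.25-fold lower. That number was 10 with a pseudocount of 5 or with equal totals, and 14 with a pseudocount of 0.1 or with equal upper quartiles. Members lower in the library labelled Tle3cKO than in WT numbered 30, and 19 with equal totals. At least 1.25-fold lower were 5 of them, and 3 with a pseudocount of 5, 0 with equal totals and 3 with equal upper quartiles. For Tle4cKO over the library labelled Tle3cKO that count was 3, and 9 with equal totals and 5 with equal upper quartiles. Past 1.5-fold was 1, and 2 with equal totals and with equal upper quartiles, and past 2-fold were 0, and 1 with a pseudocount of 0.1 and with equal totals. Scaling multiplies a whole library, so it shifts all genes together, members and others. With equal totals 63.6% of all genes were lower in Tle4cKO than in the library labelled Tle3cKO, against 47.6% at the main setting. The share of all genes past each fold limit was not computed under the other settings. Changes in these counts are therefore not results about the members. Of the 43 members, 39 kept their sign against WT in Tle4cKO under every setting tried, 32 did for the library labelled Tle3cKO, as did 36 for Tle4cKO over the library labelled Tle3cKO. Unknown depth and pooled cells limit every value.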
